A study of Mus musculus with 15 samples.

Results

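AM580, an agonist selective for the retinoic acid receptor RARα, was set against CD3254, an agonist of the retinoid X receptors (RXR), in 266-6 cells, an acinar line from mouse pancreas. The comparison takes every library the labels assign to either agonist alone, which is 3 libraries of each and 6 of the 15 in the series. The rest of the series is 3 libraries each of the vehicle DMSO, of both agonists together and of 9-cis retinoic acid. All cells spent 24 h in stripped medium and then 24 h with a ligand or the vehicle. The labels name no ligand concentration, so the agonists cannot be said to have been used at matched doses. They form the 1 pair of compounds compared. All libraries come from 1 cell line, and nothing says whether replicates were separate cultures. The spread between replicates, and every p-value built on it, may therefore be technical.

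Retinoic acid receptors bind DNA as heterodimers with RXR, typically at direct repeats of a hexamer half-site, and their targets include the gene of RARβ and enzymes that store or degrade retinoids. RXR is also the obligate partner of the liver X receptors (LXR), which govern cholesterol efflux and lipogenesis, and of the peroxisome proliferator-activated receptors (PPAR), which govern fatty acid use. Heterodimers with LXR or PPAR are called permissive because an RXR ligand alone can activate them, whereas the RAR heterodimer is generally held to need a ligand of RAR. By its title the series concerns allostery in the liganded RARα and RXR heterodimer, and the comparison asks how transcripts differ between a ligand for one partner and a ligand for the other.

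A retinoid gene and a lipid gene differed between the agonists. Dhrs3, whose product reduces retinaldehyde to retinol, was 4.02-fold higher with AM580. Angptl4, whose product is a secreted inhibitor of lipoprotein lipase, was 7.51-fold higher with CD3254. These were the only 2 of 16736 genes tested that passed an FDR of 0.05 (Benjamini-Hochberg adjusted p of edgeR's quasi-likelihood test), 0.012% in all and 0.00598% in each direction. Neither passed without the library set term or with the replicate numbers as a block. At an unadjusted p under 0.05 there were 422 genes toward AM580 (2.52%) and 219 toward CD3254 (1.31%), together 3.83% of genes. Of the 10 genes with the smallest p toward CD3254, 9 belong to lists of LXR or PPAR targets, and of the 10 toward AM580, 2 belong to the list of RAR targets. Those lists were written with earlier results of these data known, so these shares are a description.

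Replicate 1 of each agonist stood apart from replicates 2 and 3, and the results below are given with that in view. The first principal component held 48.3% of the variance and placed AM580 replicate 1 at -90.0 and CD3254 replicate 1 at -59.4, together with 1 library of each other treatment, while the other 10 libraries lay between 25.3 and 40.2. Levels are given as CPM, reads scaled to a common library total. Transcripts of 34 hypoxia genes, such as the carbonic anhydrase gene Car9 and the glucose transporter gene Slc2a1, summed to 21465 and 15344 CPM in replicate 1 of AM580 and CD3254, and to between 2615 and 2746 CPM in the other 4 libraries. DMSO replicate 1 was at 14655 CPM, so AM580 replicate 1 was the most extreme of the 3. The replicate 1 libraries also lay on opposite sides of the second component, at 20.6 for AM580 and -14.2 for CD3254. Genes differed between them with an SD of 0.882 on the log2 scale, against 0.435 for replicate 2 and 0.366 for replicate 3. The fit therefore holds a term for the library set, the 5 libraries of this kind (called the 5-library set) against the other 10. The part of the remaining distance between the replicate 1 libraries in the results was not tested. Values within each set are given for the main genes and plotted for the 20 genes with the smallest p.

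The 6 libraries held between 36144051 and 44972993 reads assigned to genes. Among genes that define acinar cells, the digestive enzyme genes Cela1, Try5 and Cpa1 were abundant, at 1049 to 3108, 557 to 1701 and 393 to 883 CPM, and the acinar transcription factor gene Rbpjl stood at 70.6 to 384 CPM. Other defining acinar transcripts were almost absent, with at most 8 reads of Cpb1, 9 of Ctrc and 5 of Amy2a5 in any of the 6 libraries. Insulin and glucagon transcripts (Ins1, Ins2 and Gcg) had 0 reads in these 6 libraries, and the leukocyte gene Ptprc had at most 5. Other markers of these cell types were present. The endocrine genes Chga and Chgb stood at 241 to 447 and 110 to 170 CPM, and the immune marker Cd68 at 4.82 to 23.9 CPM.

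Of 32 nuclear receptor genes tested, 24 lay above 0, where 51.5% of all genes did, and 0 passed in edgeR. At an unadjusted p under 0.05 were 2 toward AM580 (Rarb and Thra) and 1 toward CD3254 (Rora), against 2.52% and 1.31% of all genes. DESeq2 with the same term called Rarb. Rara, the gene of RARα, was at 35.6, 14.6 and 14.0 CPM in AM580 replicates 1, 2 and 3, and at 29.5, 12.9 and 12.8 CPM in those of CD3254. The difference, given throughout as AM580 minus CD3254 on the log2 scale, was 0.20, with a 95% interval from -0.16 to 0.55. Intervals also included 0 for Rarg (-0.08 to 0.68), for the RXR genes Rxra (-0.11 to 0.59) and Rxrb (-0.12 to 0.55), and for the LXR genes Nr1h2 (-0.02 to 0.88) and Nr1h3 (-0.17 to 0.51). The same held for Ppara (-0.08 to 1.02), Ppard (-0.25 to 0.56) and Pparg (-0.14 to 1.32). Intervals this wide do not show that the receptors were at equal levels.

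Promoter sequence is shown for 5 target genes named in the text, because direct repeats of the half-site are where these receptors bind. Dhrs3 passed the test, Rarb, Abca1 and Cpt1a did not, and Cyp26a1, too low to test, is shown for its repeat. The half-site AGGTCA and its variants AGTTCA, as well as GGGTCA, as well as GGTTCA, were searched on both strands, in RefSeq promoter windows of 250 bases before to 50 bases after a transcript start (build GRCm38.p6), and capitals mark every half-site inside the printed 120 bases before the start, on either strand. Repeats spaced by 1, 2, 4 and 5 bases are called DR1, DR2, DR4 and DR5, and overlapping matches were each counted. The stretches are chr14:16575477-16575596 (minus strand) for Rarb, chr19:37697688-37697807 (plus) for Cyp26a1, chr4:144892707-144892826 (plus) for Dhrs3, chr4:53159896-53160015 (minus) for Abca1 and chr19:3323181-3323300 (plus) for Cpt1a. Those of Rarb and Cpt1a lie inside the annotated gene, at the start of a shorter transcript.
Rarb: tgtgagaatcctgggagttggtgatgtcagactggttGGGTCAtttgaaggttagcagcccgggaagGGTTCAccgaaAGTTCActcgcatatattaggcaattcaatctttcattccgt
Cyp26a1: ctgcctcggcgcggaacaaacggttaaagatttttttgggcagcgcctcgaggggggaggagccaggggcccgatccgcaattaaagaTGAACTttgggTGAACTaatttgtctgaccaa
Dhrs3: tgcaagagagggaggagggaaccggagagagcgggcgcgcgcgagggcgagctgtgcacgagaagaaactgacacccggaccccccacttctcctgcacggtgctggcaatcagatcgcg
Abca1: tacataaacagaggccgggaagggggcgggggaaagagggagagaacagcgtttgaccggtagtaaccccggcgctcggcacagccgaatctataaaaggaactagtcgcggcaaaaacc
Cpt1a: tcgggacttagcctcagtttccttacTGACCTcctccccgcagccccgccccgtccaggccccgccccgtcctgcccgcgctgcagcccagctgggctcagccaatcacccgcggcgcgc

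The Rarb window holds a DR5 from 53 to 37 bases before the start, and the Cyp26a1 window a DR5 on the opposite strand from 32 to 16 bases before the start. Among 32851 windows in the table, 0.0974% hold a DR5 of these half-sites, 0.2679% a DR2, 0.2222% a DR1 and 0.0822% a DR4, while 43.7% hold at least 1 half-site. Of the 10 genes with the smallest p toward AM580, 9 had an entry and 2 held a direct repeat, Rarb and the matrix protein gene Tinagl1, whose window has a DR2. Of the 10 toward CD3254, 6 had an entry and 0 held a repeat of exactly these half-sites. Angptl4, Abcg1, Lpl and Gramd1b had no entry. Dhrs3 and Abca1 hold no exact match to the 4 half-sites searched in the stretch shown. Half-sites that differ from these by a letter were not searched, so a window without a match may still hold a binding element. A match is a run of letters and not a measured site, and a window without one says nothing of more distant elements.

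Dhrs3 (ENSMUSG00000066026, chr4:144892827-144928209) was at 40.7, 14.6 and 14.7 CPM with AM580 and at 10.8, 3.57 and 3.31 CPM with CD3254. Every AM580 library lay above every CD3254 library, as for 3.79% of all genes in each direction, and replicate 1 was the highest of its group in both. The log2 difference was 2.01 ± 0.22 (SE), with a 95% interval from 1.54 to 2.48 (edgeR FDR = 0.00511). The call was lost with the replicate numbers as a block in the 6 libraries, at 2.03 (edgeR FDR = 0.703). It was 2.09 in the 10-library set alone (edgeR FDR = 0.0181) and 1.90 between the replicate 1 libraries, so its size was alike in both sets. Vehicle libraries held 5.24, 2.60 and 3.54 CPM. Against them the log2 change was 2.49 ± 0.23 with AM580 (edgeR FDR = 0.000537) and 0.48 ± 0.22 with CD3254, which did not pass.

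Rarb (ENSMUSG00000017491, chr14:16430839-16819156), the RARβ gene whose DR5 is shown above, had a larger fold on far fewer reads. It was at 1.29, 2.29 and 2.30 CPM with AM580 and at 0.663, 0.246 and 0.260 CPM with CD3254, from 44, 104 and 107 reads against 25, 11 and 12. The groups did not overlap, but replicate 1 was the lowest of the AM580 libraries and the highest of the CD3254 libraries. The log2 difference of 2.32 ± 0.44 (interval 1.39 to 3.26) did not pass (edgeR FDR = 0.424). In the 10-library set it was 3.17 and passed (edgeR FDR = 0.0181), against 0.91 between the replicate 1 libraries. The test of the difference between the sets gave an unadjusted p of 0.00197 and an edgeR FDR of 0.0775. Leaving out CD3254 replicate 1 alone gave 3.07 (edgeR FDR = 0.0253).

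**Figure D1:**
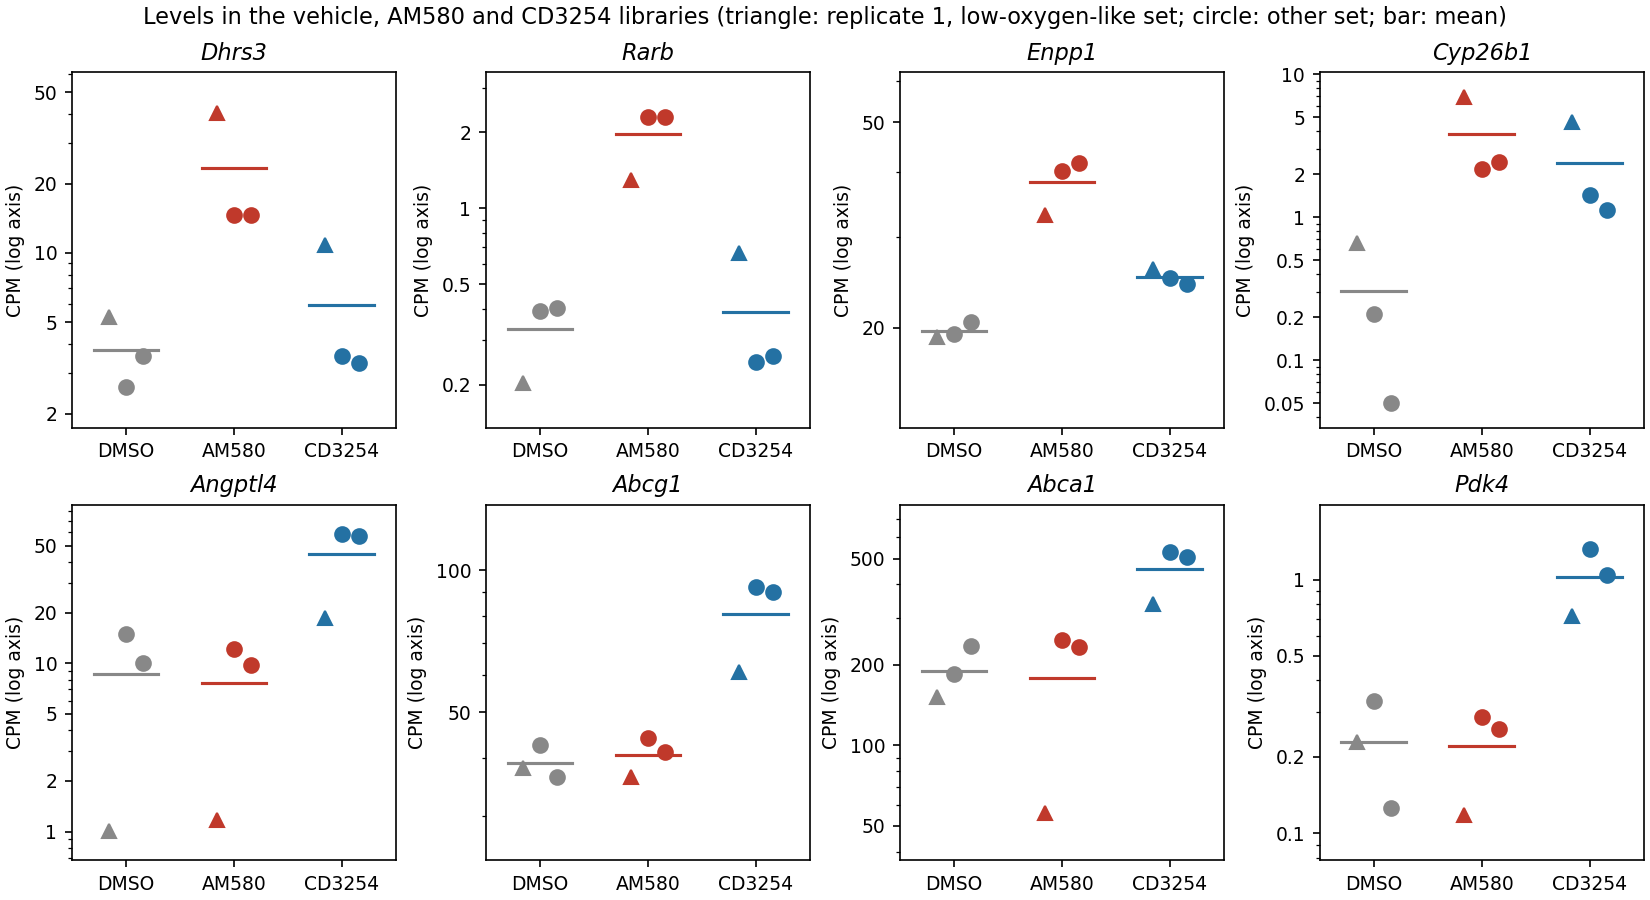
Levels of 8 genes in CPM on log axes in the DMSO, AM580 and CD3254 libraries, with triangles for replicate 1, circles for replicates 2 and 3 and a bar at the mean. For Dhrs3 all AM580 libraries (14.6 to 40.7 CPM) lie above those of CD3254 (3.31 to 10.8 CPM), and for Angptl4 all CD3254 libraries (18.5 to 58.5 CPM) lie above those of AM580 (1.17 to 12.2 CPM).

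Cyp26b1, unlike Dhrs3, passed against the vehicle with either agonist. Cyp26b1 (ENSMUSG00000063415, chr6:84571414-84593908), whose cytochrome P450 degrades retinoic acid, was at 6.90, 2.16 and 2.45 CPM with AM580 and at 4.67, 1.43 and 1.13 CPM with CD3254. Vehicle libraries held 0.659, 0.211 and 0.0503 CPM, below every library of either agonist. Cyp26b1 passed against DMSO for both, at a log2 change of 3.73 with AM580 (edgeR FDR = 0.000594) and 2.99 with CD3254 (edgeR FDR = 0.0105), which share the DMSO libraries. Between the agonists it differed by 0.74 ± 0.28 (interval 0.14 to 1.34, edgeR FDR = 0.717), and each AM580 library was above its CD3254 counterpart within both sets. Its relative Cyp26a1, whose promoter carries the other DR5 shown, was too low to test, with 1, 3 and 1 reads under AM580 and 2, 1 and 2 under CD3254.

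Further genes that passed against DMSO with AM580 also held intermediate values with CD3254. Fmo5, for a flavin-containing monooxygenase, was at 8.31, 13.8 and 15.8 CPM with AM580, 6.02, 10.9 and 9.94 CPM with CD3254 and 3.37, 4.38 and 3.42 CPM with DMSO. Cd38, for an ectoenzyme that hydrolyses NAD, was at 2.64, 5.14 and 6.77 CPM, 2.28, 2.84 and 2.77 CPM, and 1.09, 1.30 and 0.653 CPM in the same order. The CD3254 libraries thus stood between vehicle and AM580 within each set for both genes. The differences between agonists were 0.49 ± 0.19 for Fmo5 (interval 0.09 to 0.89) and 0.84 ± 0.29 for Cd38 (interval 0.20 to 1.47), and neither passed (edgeR FDR = 0.717 for both). Enpp1 (ENSMUSG00000037370, chr10:24637914-24712159), for an ectonucleotide pyrophosphatase, was steadier, at 33.0, 40.2 and 41.6 CPM with AM580, 26.02, 24.98 and 24.29 CPM with CD3254 and 19.2 to 20.6 CPM with DMSO. The 3 groups did not overlap, yet the log2 difference between the agonists of 0.60 ± 0.13 did not pass (edgeR FDR = 0.634). DESeq2 with the same term called Enpp1.

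Among the 41 RAR targets listed, 40 were in the table and 31 had enough reads to test. Of these 24 had a log2 difference above 0, where 51.5% of all genes did, and the median was 0.30 against 0.01 over all genes. That median was 0.16 in the 10-library set and 0.31 in the replicate 1 pair. Dhrs3 alone passed in edgeR, and DESeq2 with the same term also called Rarb. Where 2.52% of all genes reached an unadjusted p under 0.05 toward AM580, 5 of the 31 did: Dhrs3, Rarb, Cd38, Cyp26b1 and the homeobox gene Hoxa4. Within both sets 11 of 31 had every AM580 library above every CD3254 library and 0 the reverse, where 10.7% and 9.23% of all genes did so. In the retinoid metabolism list 17 of 25 lay above 0. The median was 0.09, which was -0.07 in the 10-library set and 0.52 in the replicate 1 pair. Against the same 2.52% of all genes, 4 members reached an unadjusted p under 0.05 toward AM580. These were Dhrs3 and Cyp26b1, which both lists hold, the alcohol dehydrogenase gene Adh1 at 0.55 ± 0.16, and Rbp2, for a cellular retinol-binding protein, at 0.89 ± 0.32. Adh1 was at 95.01, 89.39 and 93.29 CPM with AM580 against 59.1, 64.6 and 67.4 CPM with CD3254, without overlap, and did not pass (edgeR FDR = 0.717).

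**Figure D2:**
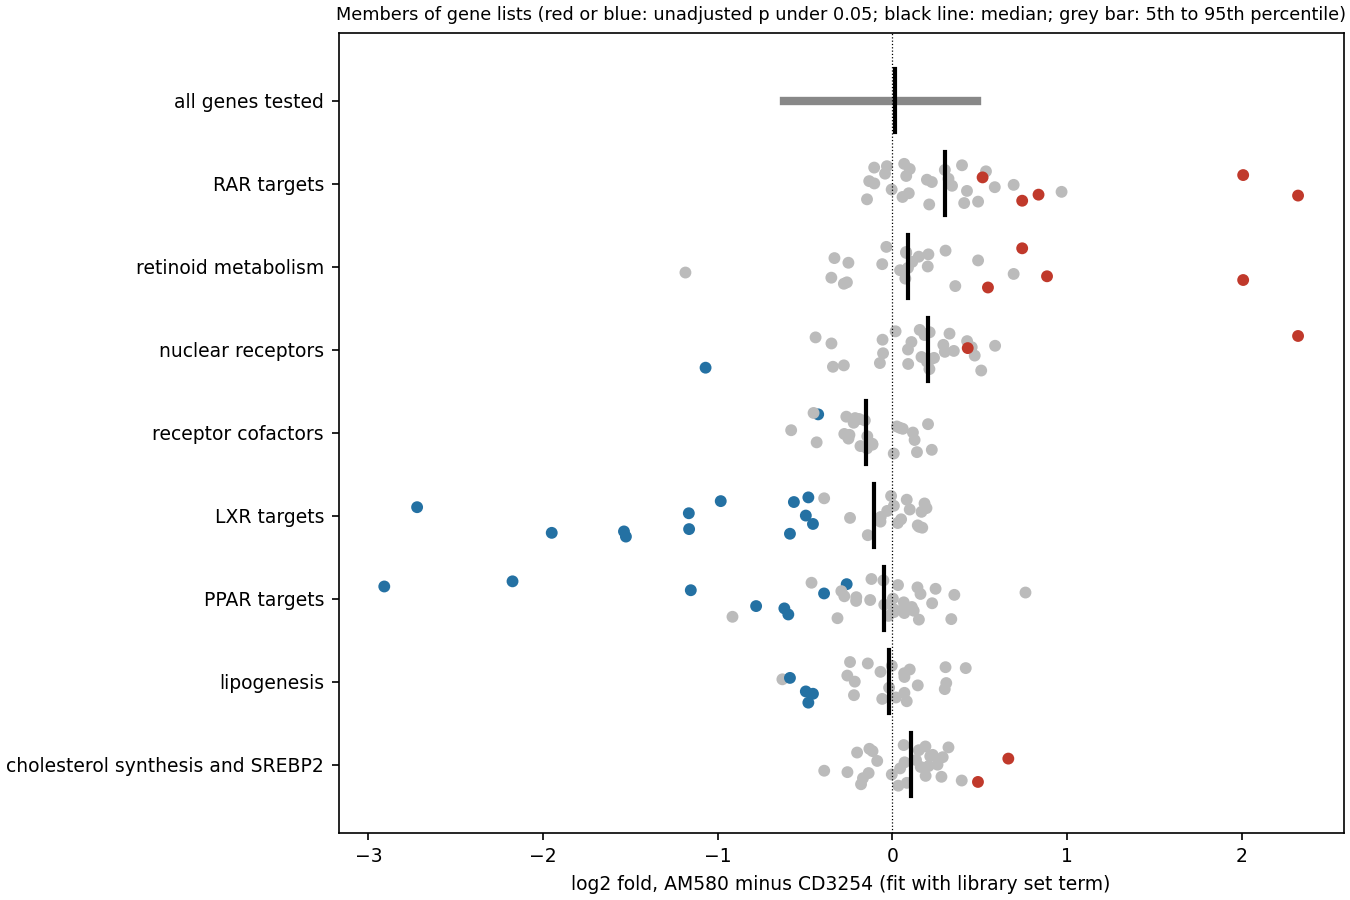
Log2 difference (AM580 minus CD3254, fit with the library set term) of each tested member of 8 gene lists, one point a gene, with red or blue at an unadjusted p under 0.05, a black line at the median and, for all genes, a grey bar from the 5th to the 95th percentile. Coloured points of the RAR targets lie to the right (5 of 31) and those of the LXR and PPAR targets to the left (12 of 30 and 8 of 37), while the medians of the last 2 lists stay near 0.

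Angptl4 (ENSMUSG00000002289, chr17:33773750-33781830), a PPAR target, was at 18.5, 58.5 and 57.3 CPM with CD3254 and at 1.17, 12.2 and 9.72 CPM with AM580. The groups did not overlap, and replicate 1 was the lowest library of each. The log2 difference was -2.91 ± 0.34 (interval -3.64 to -2.17, edgeR FDR = 0.00607), and with the replicate block it was -2.85 and did not pass (edgeR FDR = 0.843). It was -2.40 in the 10-library set (edgeR FDR = 0.0181) and -3.92 between the replicate 1 libraries. DMSO held 1.01, 14.9 and 10.1 CPM, and within each set the AM580 values were close to these, at a log2 difference from DMSO of -0.11 ± 0.33. CD3254 stood 2.80 ± 0.34 above DMSO and passed (edgeR FDR = 0.0105). The call between the agonists was lost without AM580 replicate 3 (edgeR FDR = 0.0990).

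Other PPAR targets had smaller differences. Cpt1a (ENSMUSG00000024900, chr19:3322334-3385733), for the enzyme that commits fatty acids to import into mitochondria, was at 130, 242 and 216 CPM with CD3254 and 84.1, 159 and 140 CPM with AM580. Ranges overlapped over all 6 libraries but not within either set, with differences of -0.61 and -0.63 in the 10-library set and the replicate 1 pair. The fitted difference of -0.62 ± 0.13 did not pass (edgeR FDR = 0.634), while DESeq2 with the same term called Cpt1a. Pdk4, for a kinase that restrains pyruvate oxidation, was at 0.716, 1.32 and 1.04 CPM with CD3254 and 0.117, 0.287 and 0.258 CPM with AM580, at -2.18 ± 0.50 (edgeR FDR = 0.717). The acyl-CoA thioesterase gene Acot1 was at 13.2, 12.6 and 13.6 CPM with CD3254 and 11.4, 4.28 and 3.83 CPM with AM580. Its difference was -1.69 in the 10-library set and -0.22 in the replicate 1 pair, and Acot1 and Acot2 are near-identical and may share reads. Of 37 PPAR targets tested (44 listed), 20 lay below 0 with a median of -0.05, close to the 48.5% of all genes below 0. Angptl4 alone passed in edgeR, and 8 reached an unadjusted p under 0.05 toward CD3254 with 0 toward AM580, against 1.31% and 2.52% of all genes.

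Genes of cholesterol efflux are the classic LXR targets, and their values lay toward CD3254. Abcg1 (ENSMUSG00000024030, chr17:31057675-31117988), for a transporter that loads cholesterol onto lipoproteins, was at 60.9, 92.0 and 89.9 CPM with CD3254 and at 36.3, 44.0 and 41.1 CPM with AM580. DMSO libraries held 36.4 to 42.6 CPM, inside the AM580 range. The difference of -0.98 ± 0.15 (interval -1.31 to -0.66) missed the threshold (edgeR FDR = 0.0791), although Abcg1 passed with CD3254 against DMSO (edgeR FDR = 0.0382). Abca1 (ENSMUSG00000015243, chr4:53030787-53159895), for the transporter that starts cholesterol efflux, was at 338, 531 and 506 CPM with CD3254 and 55.9, 249 and 234 CPM with AM580. AM580 replicate 1 was below DMSO replicate 1, at 151 CPM, while AM580 replicates 2 and 3 overlapped those of DMSO, at 184 and 235 CPM. The difference between the agonists was -1.10 in the 10-library set and -2.60 in the replicate 1 pair, and the fitted -1.53 ± 0.29 did not pass (edgeR FDR = 0.424). Abcg5 and Abcg8, whose products export sterols together, were at 1.25, 3.50 and 3.18 CPM and at 0.159, 1.25 and 0.996 CPM with CD3254, against at most 0.971 and 0.177 CPM with AM580. Their fitted differences were -1.95 ± 0.49 and -2.72 ± 0.70 (edgeR FDR = 0.717 for both), and that of Abcg8 rests on 1 to 8 reads in the AM580 libraries and overlapping groups.

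The LXR list also held genes of lipid remodelling. Lpl, for lipoprotein lipase, was at 12.7, 26.4 and 30.1 CPM with CD3254 and 4.52, 9.16 and 10.0 CPM with AM580, a difference of -1.54 ± 0.34 that was alike in the 10-library set (-1.56) and the replicate 1 pair (-1.48). The acyl-CoA synthetase gene Acsl3 differed by -1.17 ± 0.24, the ubiquitin ligase gene Rnf145 by -0.56 ± 0.12, the phospholipid acyltransferase gene Lpcat3 by -0.50 ± 0.14 and the desaturase gene Scd2 by -0.59 ± 0.17. Not one of these passed (edgeR FDR from 0.634 to 0.717). Srebf1, for the lipogenic factor SREBP1, was at 528, 710 and 716 CPM with CD3254 and 602, 437 and 402 CPM with AM580, so its direction turned between the sets, at -0.76 in the 10-library set and 0.19 in the replicate 1 pair. Among 30 tested LXR targets (32 listed), 19 lay below 0, where 48.5% of all genes did. In edgeR 0 passed, and 12 reached an unadjusted p under 0.05, all toward CD3254, while DESeq2 with the same term called Abcg1, Abca1, Rnf145, Acsl3 and Lpl. At that p 1.31% of all genes lay toward CD3254. Within both sets 13 had every CD3254 library above every AM580 library and 0 the reverse, where 9.23% and 10.7% of all genes did so. The median of the list was -0.10 in the fit, -0.33 in the 10-library set and -0.23 in the replicate 1 pair. Mylip, for a ubiquitin ligase, stood at -0.01 ± 0.32.

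**Figure D3:**
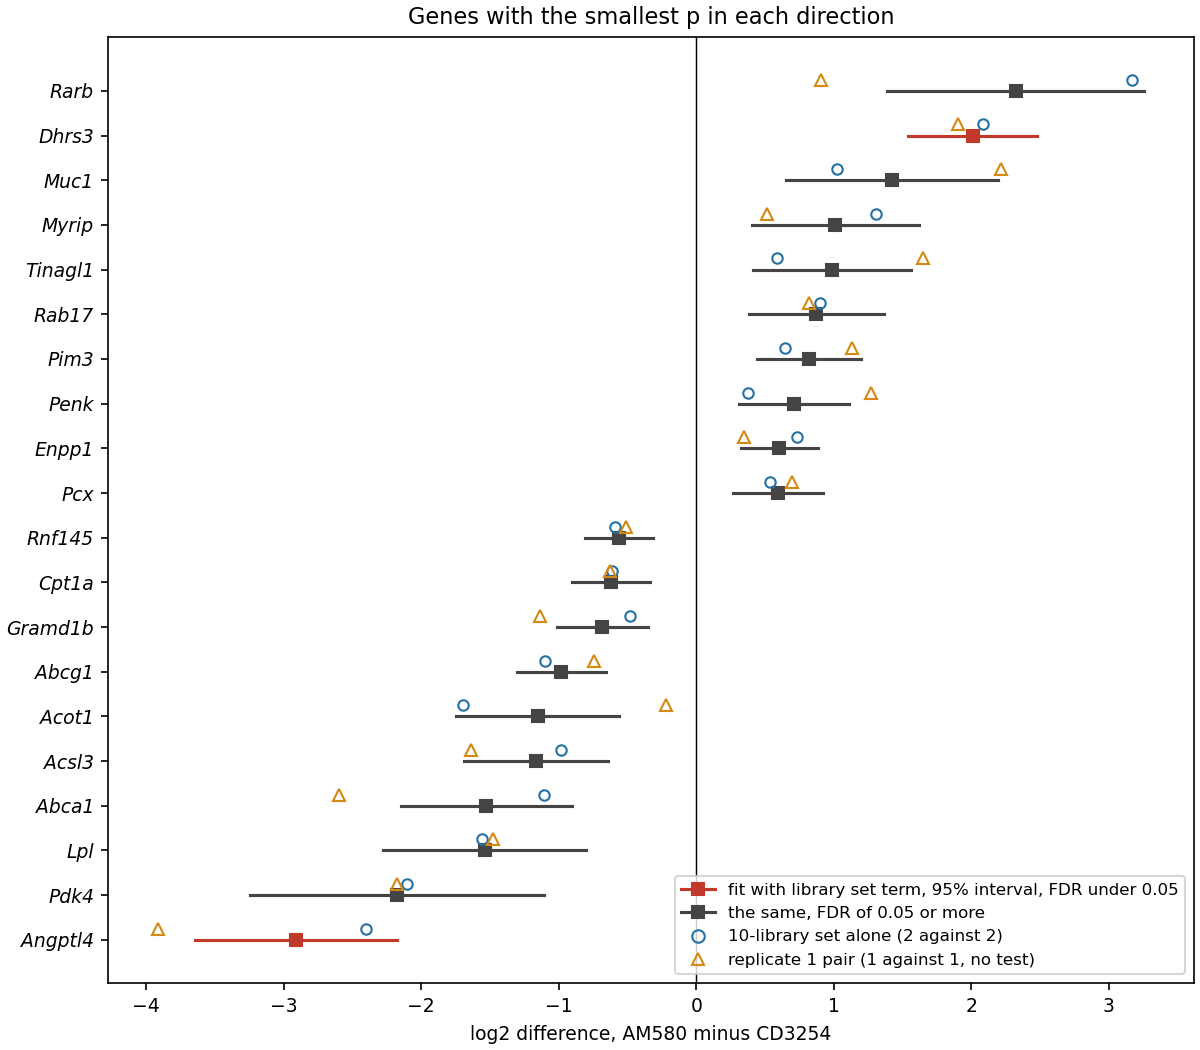
Log2 difference (AM580 minus CD3254) of the 10 genes with the smallest p in each direction, among genes of at least 1 CPM without predicted gene models. Squares and 95% intervals are from the fit with the library set term, open circles from the 10-library set and open triangles from the replicate 1 libraries. Only Dhrs3 (2.01) and Angptl4 (-2.91) are past the FDR threshold, and the triangles lie on the same side of 0 as the squares for all 20 genes. The replicate 1 libraries are part of the fit that picked these genes, so that agreement is partly built in and is no separate support.

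The remaining genes with the smallest p toward AM580 belong to neither list of retinoid genes. Pim3 (ENSMUSG00000035828, chr15:88862186-88865726), for a serine/threonine kinase, was at 333, 293 and 253 CPM with AM580, 152, 166 and 184 CPM with CD3254 and 121 to 156 CPM with DMSO. Its difference of 0.82 ± 0.18 did not pass (edgeR FDR = 0.634), while DESeq2 with the same term called Pim3. The mucin gene Muc1 (1.42 ± 0.36), Rab17 (0.87 ± 0.23), Tinagl1 (0.99 ± 0.27), Myrip (1.01 ± 0.28) and the pyruvate carboxylase gene Pcx (0.59 ± 0.15) all had an edgeR FDR of 0.717. In the 10-library set and the replicate 1 pair these stood at 1.02 and 2.21 for Muc1, 0.58 and 1.65 for Tinagl1, and 1.31 and 0.52 for Myrip. Penk, for the precursor of enkephalin peptides, was at 130, 69.3 and 79.4 CPM with AM580 and 53.8, 57.5 and 56.9 CPM with CD3254. DMSO libraries held 82.6, 102 and 104 CPM of Penk, so in the 10-library set both agonists were below the vehicle. Toward CD3254 the 1 gene outside the LXR and PPAR lists was Gramd1b, for a carrier of cholesterol between membranes, at -0.68 ± 0.16 (edgeR FDR = 0.717).

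The same genes were set beside the vehicle for each agonist. With AM580 5 genes passed (0.0299%) and with CD3254 4 genes (0.0239%), all of them above DMSO. Both comparisons use the same 3 DMSO libraries, so no overlap between them is read as a result. Dhrs3, Enpp1 and Pim3 differed from DMSO by 2.49, 0.95 and 1.08 with AM580 and by 0.48, 0.35 and 0.25 with CD3254. Angptl4, Abcg1 and Abca1 differed by -0.11, 0.04 and -0.28 with AM580 and by 2.80, 1.03 and 1.25 with CD3254. With AM580 and CD3254, Cyp26b1 differed by 3.73 and 2.99 and Fmo5 by 1.71 and 1.21. In the same order Cd38 differed by 2.19 and 1.35 and Cpt1a by 0.39 and 1.01. These log2 differences were above 0 with either agonist, as were those of Dhrs3, Enpp1 and Pim3. Of all these genes only Cyp26b1 passed with both agonists. Fmo5 and Cd38 passed with AM580 alone and Cpt1a with CD3254 alone. When both agonists were given together Dhrs3 was at 34.8 ± 16.8 CPM and Angptl4 at 42.0 ± 26.2 CPM (SD, n = 3), and with 9-cis retinoic acid they were at 26.2 ± 8.71 and 8.87 ± 6.75 CPM. Each of these SDs spans both library sets. In 9-cis retinoic acid replicate 3, 63.0% of reads had no gene, which left 14600962 reads assigned to genes.

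**Figure D4:**
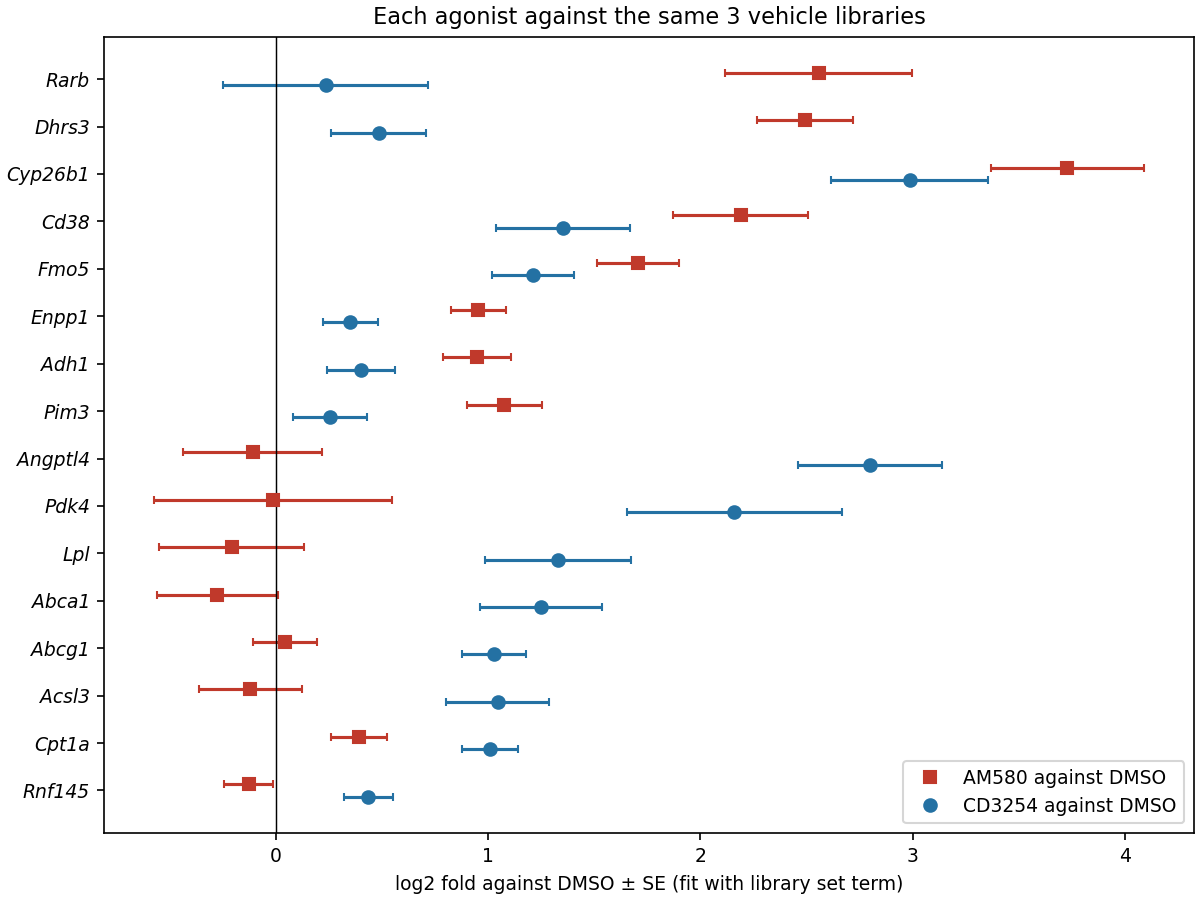
Log2 change against the same 3 DMSO libraries for 16 genes, with squares for AM580, circles for CD3254 and bars of 1 SE, from the fit with the library set term. Retinoid genes such as Dhrs3 (2.49 against 0.48) lie farther right with AM580, lipid genes such as Angptl4 (-0.11 against 2.80) farther right with CD3254, and Cyp26b1 lies far right with both (3.73 and 2.99).

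How far the library state bears on these differences can be read within the sets. Between the replicate 1 libraries 3917 genes (23.4%) differed by more than 2-fold, against 614 (3.67%) for replicate 2 and 491 (2.93%) for replicate 3. The test of whether the agonist difference itself differed between the sets passed for 0 genes (smallest edgeR FDR 0.0651), with 4377 genes (26.2%) at an unadjusted p under 0.05. That test rests on 1 library of each group in the 5-library set and 5 residual degrees of freedom. In the 10-library set alone 3 genes passed (0.0179%), Rarb and Dhrs3 toward AM580 and Angptl4 toward CD3254. Without the library set term 0 genes passed in edgeR, with 153 at an unadjusted p under 0.05, and 1 passed in DESeq2, which was Rarb. With replicate numbers as a block in the 6 libraries, 0 passed (246 at an unadjusted p under 0.05).

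**Figure D5:**
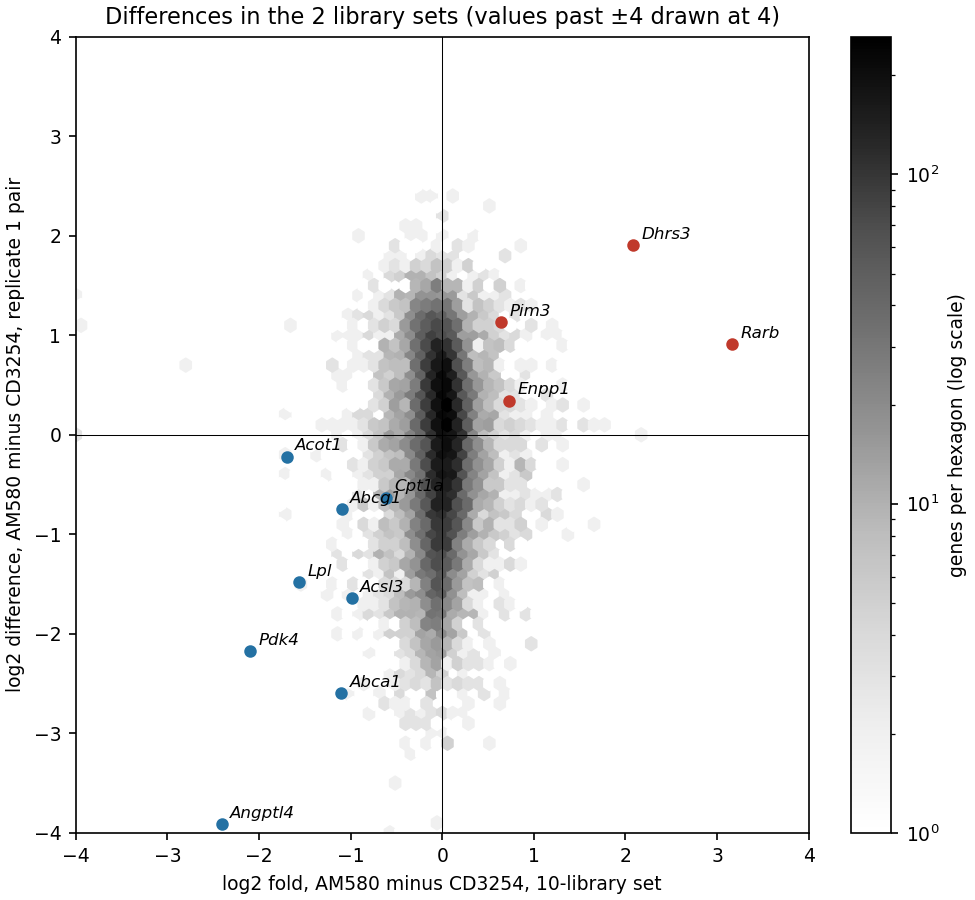
Log2 difference (AM580 minus CD3254) in the 10-library set on the horizontal axis and between the replicate 1 libraries on the vertical axis, with all tested genes as hexagons shaded by number on a log scale and 12 genes as points. The cloud is taller than wide, and Dhrs3 (2.09 and 1.90) and Angptl4 (-2.40 and -3.92) lie away from it. The horizontal axis draws on more libraries than the vertical one, which narrows it by itself. Between single libraries the SD was 0.882 for replicate 1, 0.435 for replicate 2 and 0.366 for replicate 3.

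Summed markers of several cell types were highest in AM580 replicate 1. The 32 acinar enzyme genes summed to 14577, 9804 and 9218 CPM with AM580 and to 7743, 11197 and 10821 CPM with CD3254, so the order of the groups turned between the sets. Of 28 tested, 21 lay above 0, where 51.5% of all genes did. Toward AM580, 1 reached an unadjusted p under 0.05 (2.52% of all genes did), and 0 passed in edgeR or DESeq2. The median was 0.28 in the fit, -0.12 in the 10-library set and 0.85 in the replicate 1 pair. In bulk libraries, fewer cells of a type and less RNA per cell cannot be told apart. The 21 ductal and progenitor markers summed to 3720, 1589 and 1529 CPM with AM580 and 1874, 1411 and 1395 CPM with CD3254. Of 20 tested, 18 lay above 0, where 51.5% of all genes did. Toward AM580, 4 reached an unadjusted p under 0.05 (2.52% of all genes did), Muc1, Hes1, Anxa2 and Clu. The list median was 0.31 in the fit, 0.13 in the 10-library set and 0.32 in the replicate 1 pair. In the 10-library set these 4 genes stood at 1.02, 0.41, 0.14 and 0.16, and in the replicate 1 pair at 2.21, 0.30, 1.14 and 1.15. Immune markers summed to 31.2, 12.2 and 12.5 CPM against 13.6, 11.2 and 10.6 CPM. The part of these shifts in the differences between the agonists was not tested.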

How the data were processed

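Read counts per Ensembl gene were deposited by the authors as raw, unnormalized whole numbers for all 15 libraries. HISAT2 2.2.1, SAMtools 1.18, HTSeq and FastQC were used with the mm10 build, per the submitters' processing notes. The counting strand and the annotation release are unknown here, so overlapping and antisense genes may share reads. Rows of reads without a gene held 19.1% to 22.7% of reads in the 6 libraries and were left out.

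Counts were scaled by TMM, filtered by filterByExpr (16736 of 43432 genes kept) and fitted to all 15 libraries with edgeR 4.0.16 in R 4.3.3 (robust quasi-likelihood, two-sided, Benjamini-Hochberg, threshold 0.05). The model held the group and the library set, which is the side a library takes on principal component 1 (log2 CPM, prior count 2). The tested counts themselves defined that set. Without the term the median SE was 0.337, against 0.221 with it. Alternatives covered DESeq2 1.42.0, other scaling, filters, terms and single libraries left out. The procedure was also run on simulated counts with the same agonist difference in both library sets. That run cannot show how the fit behaves where the difference varies between the sets.

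Deviations of AM580 and CD3254 libraries with the same replicate number from their group means correlated over genes (r = 0.62, 0.44 and 0.53). The reported fit holds no term for the replicate number, and pairing by number entered only as the block in alternative fits. Replicate 2 minus replicate 3 correlated between the agonists at r = 0.11. The labels do not say that a number marks a shared batch, and replicate 2 of one group also correlated with replicate 3 of the other (0.48 and 0.38).

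Named genes are those past the threshold, then the smallest p until 10 in each direction, up to 4 members of each of 20 lists each way by smallest p, and a fixed set of receptor and target genes. The comparison, lists and named genes were chosen with earlier results of these data known. Gene coordinates come from GENCODE M21 (GRCm38), and promoter windows from RefSeq.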

Additional observations from a re-analysis of the deposited data

How the results depend on the processing

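The direction of the AM580 and CD3254 difference held for Dhrs3, Angptl4, Rarb and Abcg1 under every alternative run, with log2 ranges of 1.82 to 2.25, -3.12 to -2.39, 2.02 to 3.18 and -1.10 to -0.93. The number of calls did not hold. With 1 gene higher and 1 lower with AM580 in the reported fit, both counts were 0 in edgeR without the library set term (153 genes at an unadjusted p under 0.05), in the 6 libraries with group only (89), with the replicate block in the 6 libraries (246) and with the replicate block in all 15 (144). DESeq2 gave 4 higher and 8 lower with the term and 1 and 0 without it. With the term the higher genes were Dhrs3, Rarb, Enpp1 and Pim3. The lower genes were Angptl4, Abcg1, Rnf145, Abca1, Acsl3, Cpt1a, Lpl and Dnah6. The 6 libraries with the term gave 1 and 0, the 10-library set 2 and 1, and no filter on low counts 2 and 1, where Rarb joined and Abcg1 took the place of Angptl4 (FDR = 0.0893). Leaving out replicate 1 of both agonists, chosen after seeing the data, gave 2 and 3, and scores on the first 2 components in place of the set, also chosen later, 1 and 2. Leaving out 1 library gave 1 to 2 higher and 0 to 2 lower: Rarb joined without CD3254 replicate 1, Acot1 without AM580 replicate 1, and Angptl4 was lost without AM580 replicate 3. Leaving out 9-cis retinoic acid replicate 3 kept both calls and gave 1053 genes at an unadjusted p under 0.05, against 641 in the reported fit. The cause was not tested.

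Against DMSO, AM580 had 5 genes higher and 0 lower, which became 0 higher without the term and 13 and 4 in DESeq2. CD3254 had 4 and 0, which became 0 higher without the term and 11 and 1 in DESeq2. For the difference between the sets 0 genes passed, and with only genes of a mean of at least 100 reads 1 did, Mat2a (FDR = 0.0450). At an unadjusted p under 0.05, chosen as a count after seeing the data, RAR targets went from 5 to 3 without the term, PPAR targets from 8 to 5, nuclear receptors from 2 to 1 and ductal markers from 4 to 2. Retinoid metabolism went from 4 to 2 in the 10-library set, and ductal markers were at 2 there and at 2 without replicate 1 of both agonists. Rarb, Pdk4 and Abcg8 rest on few reads, and Cyp26a1 had too few to test.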

Other observations

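Of 24 tested genes of the interferon response 14 were below 0 (48.5% of all genes were), with a median of -0.08 that was -0.30 in the 10-library set and 0.24 in the replicate 1 pair. In edgeR and DESeq2 0 passed, and 3 reached an unadjusted p under 0.05 in edgeR, all toward CD3254, where 1.31% of all genes did. Within both sets 7 of 24 had every CD3254 library above every AM580 library and 0 the reverse, against 9.23% and 10.7% of all genes. Mx2, of the antiviral GTPase family, is annotated as a polymorphic pseudogene. Its transcript was at 2.57, 3.17 and 2.90 CPM with CD3254 and 2.00, 1.94 and 1.33 CPM with AM580, without overlap. Ddx58, for the RNA sensor RIG-I, was at 22.9, 18.4 and 19.0 CPM with CD3254 and 15.6, 16.7 and 14.6 CPM with AM580. DMSO libraries held 26.4, 26.1 and 25.5 CPM of Ddx58, above every library of either agonist.

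Of 29 cell cycle genes 19 were above 0, where 51.5% of all genes were, with a median of 0.12, which was 0.02 in the 10-library set and 0.39 in the replicate 1 pair. None passed in edgeR or DESeq2, and 5 reached an unadjusted p under 0.05 toward AM580, where 2.52% of all genes did. Cdc6, which licenses replication origins, was at 180, 103 and 99.1 CPM with AM580 and 115, 87.7 and 85.7 CPM with CD3254, at 0.37 ± 0.13 (edgeR FDR = 0.717). Mcm2, for a subunit of the replicative helicase, was at 627, 510 and 465 CPM against 408, 435 and 438 CPM, without overlap. Of 30 cholesterol synthesis genes 20 were above 0, at a median of 0.11, which was -0.01 in the 10-library set and 0.33 in the replicate 1 pair.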
